A study of Mus musculus with 18 samples.

Results

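Dense runs of neighbouring m5C sites are stretches of RNA in which a bisulfite library listed many methylated cytosines side by side. A run site is a listed site that has at least 4 other listed sites on the same chromosome and strand within 25 nt in the same library. Of the 25890 distinct sites of 9 libraries, 5750 (22.2%) were run sites in at least 1 library. Summed over the libraries, 14400 of 57448 listed sites were run sites, and they formed 1878 runs. A run is a chain of run sites with gaps of at most 25 nt, extended to the neighbouring sites counted for them. Runs of different libraries that overlap by at least 1 nt on a strand were joined, which gave 678 loci.

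The RNA is labelled as that of primary cortical neurons of C57BL/6 mouse embryos at day 18. The cells were left untreated (control), or went without oxygen and glucose for 1.5 h or 3 h before a reoxygenation of 24 h (groups OGD/R 1.5 h and OGD/R 3 h). Each group has 3 bisulfite libraries. All groups share the strain and the kind of culture, and the supplement to the study's paper calls the replicates sequencing pools. The 3 libraries of a group are therefore treated as 1 sample, values are given for each library, the SD describes the spread between libraries, and no p-value is given. The 9 mock libraries were not analysed here.

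5-methylcytosine (m5C) is a methyl mark on cytosines of RNA. In tRNA and rRNA it is placed at defined positions by enzymes of the NSUN family and by DNMT2, and in mRNA it is sparser. Bisulfite turns unmethylated cytosine into uracil and spares m5C, so a cytosine that is read as C counts as methylated. Cytosines in tightly folded RNA are reached poorly by bisulfite, so spared cytosines in a row are known from incomplete conversion as well as from methylation. Conversion in the runs was not tested.

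A cytosine was listed by the authors where at least 10 reads covered it and at least 0.1 of them were methylated. A stretch with too few reads holds no site whatever its methylation, and the depth of the libraries is unknown. In RNA from a whole culture, fewer cells of a type and less RNA per cell cannot be told apart. Each site has a score from 0 to 1000, which the files do not define and which is taken here to grow with coverage and with level together.

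The stretches below show what a run looks like. They were chosen from loci particular to 1 group by the rule and from a structured RNA that held a run in every library. All are taken from the RefSeq GRCm38 (mm10) genome, 5′ to 3′, and capitals mark the cytosines listed in at least 1 library of the group named.
Hbb-bs, OGD/R 3 h (chr7:103827840-103827869, minus strand): CaCCtgaCtgatgCtgagaaggCtgCtgtC
Itm2b, OGD/R 3 h (chr14:73365785-73365814, minus strand): CCtCtgaaCaCttCCatCgttatgCCgCCC
Rpl8, OGD/R 3 h (chr15:76904895-76904924, plus strand): CCtggggaCaggggCaagCtggCCCgagCC
Cox4i1, OGD/R 3 h (chr8:120674041-120674070, plus strand): gaaggCCaaccCcattCagggCttCtCCgC
Cox4i1, OGD/R 1.5 h, same bases: gaaggccaaccccattcagggcttctCCgc
Sec24a, OGD/R 1.5 h (chr11:51733851-51733880, minus strand): ggCtCtgcatacCCctCcCtgCCacCaggC
Sec24a, OGD/R 3 h, same bases: ggctCtgcatacCCctccctgCcaccaggC
Snord104, control (chr11:106501028-106501057, plus strand): CtgCtgatCCgggtgatgCgaatCgtaatC
Rpph1, control (chr14:50807662-50807691, minus strand): ggcCtccCgcggcCCtaacCgggCtctccc
Rpph1, OGD/R 3 h, same bases: ggCCtcccgCggCCCtaacCgggCtCtCcC
In the Hbb-bs, Itm2b and Rpl8 stretches every cytosine was listed in at least 1 OGD/R 3 h library. The Cox4i1 stretch had 9 of its 12 cytosines listed, while in the RNase P RNA (Rpph1) 6 of 16 were listed in control and 11 of 16 in OGD/R 3 h. No cytosine of the Hbb-bs, Itm2b, Rpl8 or Cox4i1 stretch was listed in control. The 3 libraries did not list the same number of cytosines in each stretch: the Itm2b stretch had 13, 4 and 6 in OGD/R 3 h replicates 1, 2 and 3, whereas the Hbb-bs stretch had 8 in each.

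Before the comparisons, the labelled cell type was checked against its markers. None of 15 neuron marker genes, among them Tubb3, Map2, Snap25 and Rbfox3, carried a single listed site in any group. Of 15 marker genes of intestinal epithelium, 12 carried a site in control, 11 in OGD/R 1.5 h and 15 in OGD/R 3 h. Of 9 smooth muscle and fibroblast markers, 4, 4 and 5 carried a site. Erythroid genes (7 annotated) and neutrophil genes (9) carried none in control or OGD/R 1.5 h, but 2 and 3 of them did in OGD/R 3 h. The files list methylated sites and not expression, so a gene without a site is not shown to be unexpressed, and the part of these cell types in the runs was not tested.

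Runs were more numerous in OGD/R 3 h than in the other groups. Control libraries 1, 2 and 3 held 1241, 1251 and 1268 run sites, OGD/R 1.5 h libraries 1208, 1373 and 1206, and OGD/R 3 h libraries 2310, 2268 and 2275. Every OGD/R 3 h library lay above all others, with a mean of 2284 ± 22.5 (SD, n = 3 libraries) against 1253 ± 13.7 in control and 1262 ± 95.8 in OGD/R 1.5 h, a difference of 0.87 from control on the log2 scale. The OGD/R 1.5 h and control libraries overlapped.

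The libraries of OGD/R 3 h also listed more sites in all, 7266 to 7772 against 5423 to 6254 in the other 6. As a share of the sites of a library, run sites made up 20.6%, 20.0% and 21.5% in the control libraries, 22.3%, 23.9% and 21.2% in OGD/R 1.5 h, and 29.7%, 31.2% and 30.8% in OGD/R 3 h. The share was thus 9.90 percentage points higher in OGD/R 3 h than in control, beyond the spread between libraries, while OGD/R 1.5 h overlapped with control. The part of the higher number of sites in this difference was not tested.

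The number of runs was 187, 166 and 180 in the control libraries, 149, 170 and 158 in OGD/R 1.5 h, and 295, 285 and 288 in OGD/R 3 h. Individual runs differed little in size. Their median length was 40 to 41 nt in control, 44 to 45 nt in OGD/R 1.5 h and 40 to 43 nt in OGD/R 3 h, with a median of 6 to 7 listed sites. On average OGD/R 1.5 h exceeded control by 3.67 nt, without overlap, but this difference was 0.33 nt with overlapping libraries when only sites in mRNA exons were used. Near the limit of the definition, 258 to 575 sites of a library had exactly 4 others within 25 nt and counted as run sites, and 415 to 781 had exactly 3 and did not.

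The longest run of each group lay in the rRNA segment of chromosome 17 (chr17:39843013-39848827 of mm10), where GENCODE places an rRNA gene and 3 noncoding genes. The longest of control was 319 nt with 48 of 91 cytosines listed, that of OGD/R 1.5 h was 314 nt with 44 of 78, and that of OGD/R 3 h was 324 nt with 45 of 80. All 3 lay within the same locus, chr17:39845037-39845455 on the plus strand, which held 54 to 56 listed sites in the control libraries, 42 to 51 in those of OGD/R 1.5 h and 39 to 48 in those of OGD/R 3 h. Every control library lay above all 6 OGD/R libraries there, and the OGD/R groups overlapped. In replicate 3 of OGD/R 1.5 h and of OGD/R 3 h the longest run, of 150 and 191 nt, lay instead in the 3′ untranslated region of Lars2.

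By kind of RNA, the difference between OGD/R 3 h and control in number of run sites was largest in mRNA. Exons of protein-coding transcripts held 325, 279 and 290 run sites in the control libraries, 191, 225 and 233 in OGD/R 1.5 h, and 925, 847 and 801 in OGD/R 3 h. OGD/R 1.5 h lay below control and OGD/R 3 h above it, with no overlap. Small noncoding RNAs (snoRNA, snRNA, tRNA and the like) held 511, 572 and 611 run sites in the control libraries, 727, 720 and 657 in OGD/R 1.5 h, and 854, 821 and 935 in OGD/R 3 h, and both OGD/R groups lay above control. The rRNA segment held 174 to 221 run sites in control, 140 to 165 in OGD/R 1.5 h and 136 to 183 in OGD/R 3 h, where the last overlapped with control.

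**Figure D1:**
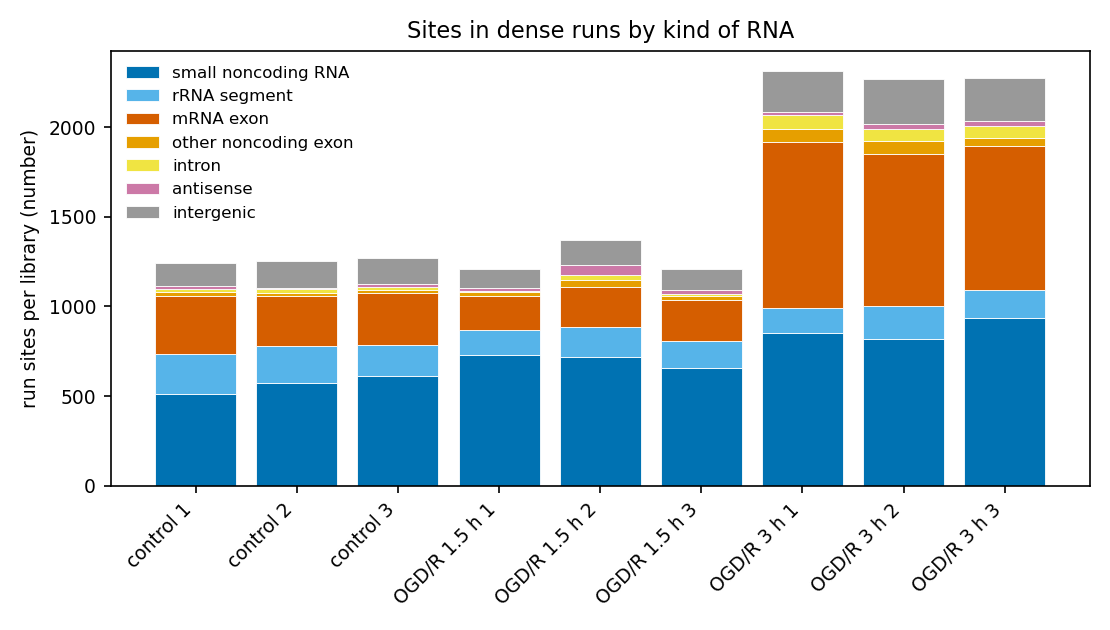
Stacked bars give the number of run sites in each of the 9 libraries, split by the kind of RNA on which the site lies. The mRNA part (dark orange) is 801 to 925 sites in the OGD/R 3 h libraries and 191 to 325 in the other 6.

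Within mRNA the share of sites that lay in runs was ordered in the same way. Of the sites in mRNA exons, 8.27%, 6.67% and 7.58% lay in runs in the control libraries, 5.45%, 6.32% and 6.22% in OGD/R 1.5 h, and 17.5%, 17.9% and 16.9% in OGD/R 3 h. Intronic sites went from 12.6% ± 0.940 (SD, n = 3 libraries) in control, and 14.4% ± 7.26 in OGD/R 1.5 h, to 45.6% ± 0.853 in OGD/R 3 h, and intergenic sites from 39.1% ± 4.18 to 56.6% ± 0.986. In small noncoding RNAs, by contrast, 61.3% to 65.3% of sites lay in runs in control, 70.0% to 73.1% in OGD/R 1.5 h and 65% to 67.0% in OGD/R 3 h. Only a small part of mRNA sites was in a run in any group, whereas most sites in small noncoding RNAs were.

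**Figure D2:**
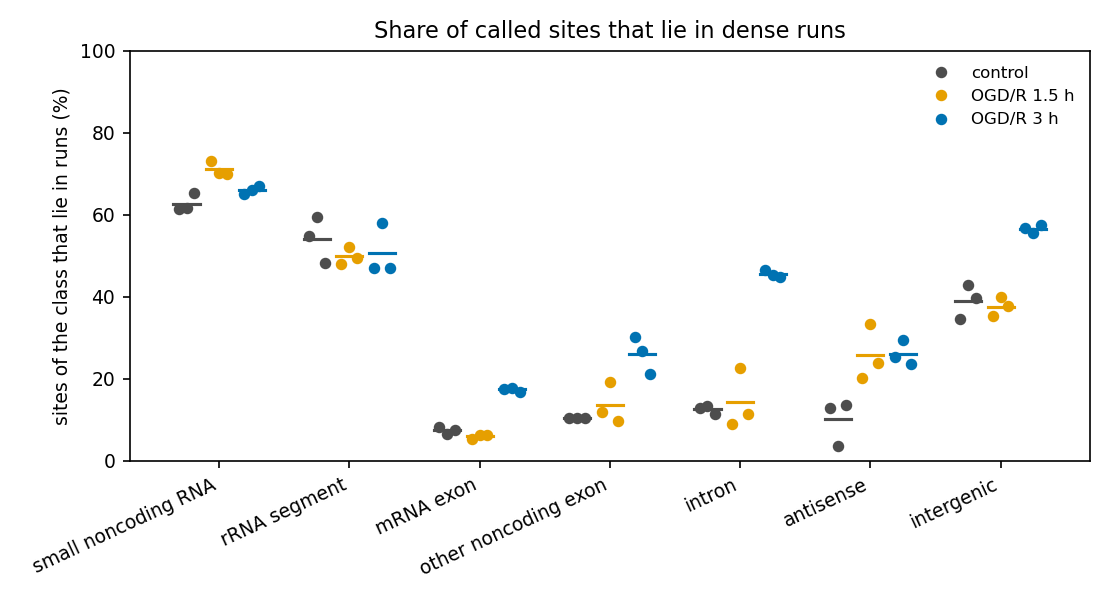
Each point is 1 library and each bar the mean of 3, giving the percentage of the sites of a kind of RNA that lie in runs. For mRNA exons, introns and intergenic sites the OGD/R 3 h points (blue) lie above all others, while for the rRNA segment the groups overlap.

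Small noncoding RNAs are short and stable molecules. snoRNAs, which guide modification of rRNA, made up most of their run sites, with 324, 367 and 387 in the control libraries, 583, 618 and 516 in OGD/R 1.5 h and 580, 535 and 665 in OGD/R 3 h. Both OGD/R groups lay above control. snRNAs, the RNAs of the spliceosome and, in this annotation, the U3 RNAs, had 42, 43 and 43 run sites in the control libraries, 14, 13 and 23 in OGD/R 1.5 h and 122, 123 and 90 in OGD/R 3 h, so that the OGD/R groups lay on opposite sides of control. Single snRNA genes varied within OGD/R 3 h: Gm26110 had 22, 7 and 0 run sites and Gm22265 7, 12 and 0, whereas Gm24497 had 21, 19 and 20. Whether reads moved between copies was not tested. tRNAs, the best known carriers of m5C, held 75 to 111 in control, 50 to 75 in OGD/R 1.5 h and 59 to 79 in OGD/R 3 h, and the groups overlapped or touched.

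The 7SL RNA genes Rn7s1 and Rn7s2 encode the RNA of the signal recognition particle, which brings ribosomes to the endoplasmic reticulum. They held 27, 20 and 25 run sites among 42, 43 and 49 listed sites in control. In the 6 OGD/R libraries they held no listed site at all. Rn7s1 and Rn7s2 are near-identical copies, and reads may have been split between them. The RNase P RNA Rpph1, which trims tRNA precursors, and the RNase MRP RNA Rmrp held a run in all 9 libraries, with 7 to 27 and 6 to 16 run sites in a library.

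Not all cytosines of a run were listed. Runs held 2215 to 4297 cytosines of the strand in a library, and of these 56.4%, 60.1% and 59.1% were listed in the control libraries, 64.3%, 65% and 62.6% in OGD/R 1.5 h and 63.6%, 63.1% and 62.7% in OGD/R 3 h. Both OGD/R groups lay above control, by 5.41 and 4.60 percentage points, but OGD/R 3 h overlapped with control, at 2.15 points, when neighbours were counted within 50 nt. OGD/R 1.5 h overlapped with control, at 0.892 points, in mRNA exons only. The share was 74.0% to 79.0% in control runs of small noncoding RNAs, 49.3% to 51.8% in those of mRNA and 40.4% to 44.6% in those of the rRNA segment. In mRNA runs it was 55% to 57.8% in OGD/R 3 h, above every control library, and 47.9% to 54.8% in OGD/R 1.5 h, which overlapped with control.

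Some runs had every cytosine listed. Over all kinds of RNA these were 11.2%, 18.1% and 21.1% of the runs in the control libraries. The shares were 22.1%, 22.4% and 17.7% in OGD/R 1.5 h and 24.4%, 21.1% and 20.5% in OGD/R 3 h, and the groups overlapped. In mRNA they numbered 0, 2 and 1 of 74, 61 and 66 runs in the control libraries. They numbered 1, 2 and 1 of 42, 54 and 51 in OGD/R 1.5 h, and 25, 17 and 15 of 147, 134 and 132 in OGD/R 3 h. At the level of loci, 76 held a run in all 3 libraries of control, 73 in those of OGD/R 1.5 h and 166 in those of OGD/R 3 h. In mRNA exons such loci numbered 20, 9 and 71. Of these loci over all kinds of RNA, every cytosine was listed in all 3 libraries of the group at 4, 15 and 39. In control and OGD/R 1.5 h all of the fully listed loci were snoRNAs, such as Snord15b, Snord47 and Snord49a in OGD/R 1.5 h. In OGD/R 3 h, 20 were small noncoding RNAs, 18 of them snoRNAs, 4 lay in introns, 2 were unannotated and 13 lay in mRNA exons: Anxa1, Cyba, H2bc18, Hbb-bs, Hbb-bt, Ngp, Prr13, Rhob, S100a8, S100a9, Thyn1, Tmsb4x and Ywhaz. Anxa1, Cyba, H2bc18, Prr13, Rhob, Thyn1, Tmsb4x and Ywhaz are named here after their values were seen. A locus begins and ends at a listed site, so its outermost cytosines are listed by construction.

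Over all kinds of RNA together, the cytosine context of run sites differed from that of the other sites. The kinds were mixed differently, since small noncoding RNAs made up 36.2% to 60.2% of run sites in a library and 6.30% to 9.04% of the others. CHH (a cytosine not followed by G at either of the next positions, H being A, C or T) made up 49.4% to 52.4% of run sites in control, 54.1% to 55.7% in OGD/R 1.5 h and 54.0% to 54.5% in OGD/R 3 h. Both OGD/R groups overlapped with control when only sites with a score of at least 10 were used. Among other sites of the same libraries it was 35.6% to 36.2%, 38.6% to 40.3% and 43.3% to 44.2%. Within mRNA exons the CHH shares lay closer in control, with 34.8% to 38.4% at run sites and 32.1% to 33.4% at the others. They were 45.5% to 48.4% and 36.2% to 38.3% in OGD/R 1.5 h, and 45.1% to 47.1% and 39.6% to 41.8% in OGD/R 3 h. CG made up 30.5% to 32.1% of mRNA run sites in control and 26.8% to 27.6% of the others, and its order varied between the OGD/R libraries. A run needs several cytosines close together, so the base composition of run sites is partly set by the definition. A measure less tied to it is the listed share of the cytosines within runs. It was lowest for CG, with 50.4% to 50.7% in control, 53.0% to 57.0% in OGD/R 1.5 h and 55.5% to 57.1% in OGD/R 3 h, and reached 60.7% to 64.1%, 68.5% to 69.3% and 66.5% to 67.8% for CHG. By neighbour, cytosines followed by T were listed most often (65.6% to 74.1% in a library) and those preceded by A more often (65.3% to 73.0%) than those preceded by C (51.8% to 60.8%) or G (51.8% to 62.6%).

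**Figure D3:**
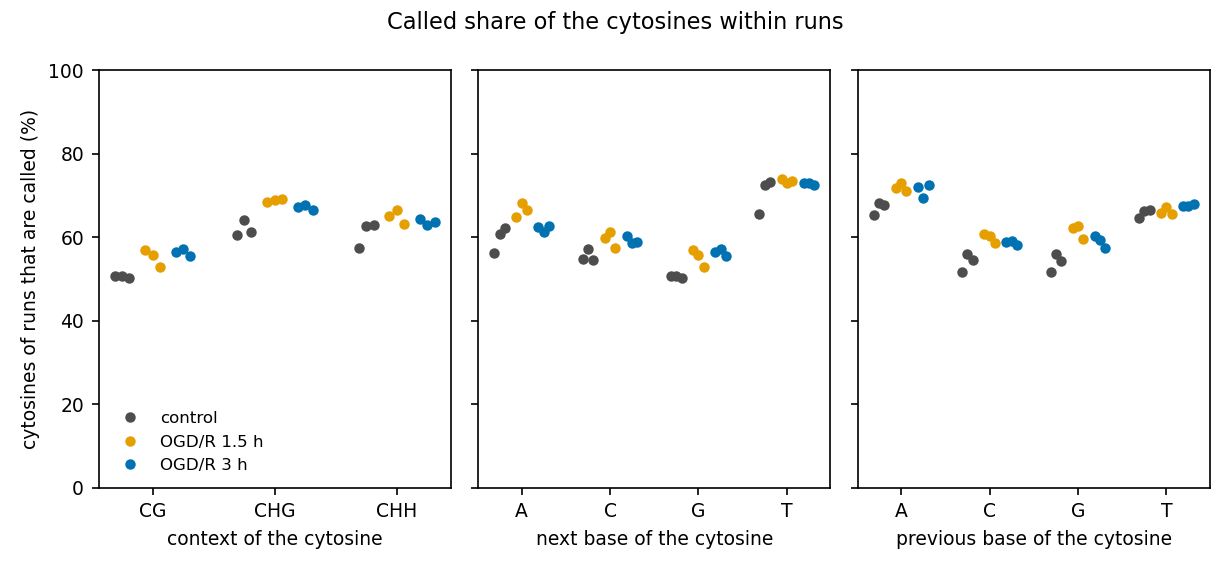
Points give, for each library, the percentage of the cytosines within runs that are listed, by context and by the next and the previous base. In all 9 libraries the share is lowest before G and highest before T.

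Within 25 nt of run sites, G and C made up 58.6%, 57.6% and 57.8% of the bases in control, against 57.5%, 56.9% and 57.5% at the other sites. In all 6 OGD/R libraries the order was the opposite, with 54.0% to 55.4% at run sites and 55.9% to 58.0% at the others. These values pool all kinds of RNA, which were mixed differently at run sites and at the others. In mRNA, G made up 30.1% to 37.5% of the bases around run sites and C 25.8% to 29.3%. Around the other mRNA sites G made up 33.2% to 37.4% and C 20.8% to 26.5%. Within mRNA, G and C together were higher at run sites in every control and OGD/R 1.5 h library, and the order varied in OGD/R 3 h. The predicted folding energy of 101 nt within an exon had a median of -32.0 to -33.8 kcal/mol at mRNA run sites in control and -28.2 to -28.9 at the other mRNA sites, so control runs lay in sequence that folds more tightly in prediction. The order was the opposite in OGD/R 1.5 h, with -24.8 to -26.2 at run sites and -26.8 to -27.7 at the others. In OGD/R 3 h the ranges were -27.2 to -29.4 and -29.1 to -30.4, and they overlapped.

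Along mRNA, runs of OGD/R 3 h were closest to the start of translation. Of the mRNA run sites, 27.4%, 27.6% and 25.9% lay within 100 nt of the start codon in the control libraries, 17.3%, 14.7% and 18.5% in OGD/R 1.5 h and 38.6%, 40.6% and 49.4% in OGD/R 3 h. The 3 groups did not overlap. Among the other mRNA sites the share was 25.8% to 29.9% in control, 21.6% to 25.2% in OGD/R 1.5 h and 27.1% to 30.5% in OGD/R 3 h. The 5′ untranslated region held 29.2% to 31.0% of mRNA run sites in control, 10.7% to 17.8% in OGD/R 1.5 h and 34.1% to 39.3% in OGD/R 3 h.

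The score was not used to choose run sites. Its median was 54, 67 and 74 at control run sites, 139, 149 and 129 at those of OGD/R 1.5 h, and 100, 171 and 139 at those of OGD/R 3 h, against 9 to 15 at the other sites. The difference varied with the kind of RNA. In small noncoding RNAs the median was 242 to 297, 660 to 866 and 568 to 621 at run sites and 40.5 to 130 at the others. In mRNA it was 6 to 9, 4 to 7 and 14 to 15 at run sites and 7 to 12 at the others, so mRNA run sites of control had a median no higher than the mRNA sites outside runs. In the rRNA segment run sites had the lower median in every library, 32.5 to 381 against 191 to 1000.

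At sites listed in both control and OGD/R 3 h, scores could be compared site by site. The score is taken to mix coverage and level, and depth is unknown, so a higher score need not be higher methylation. The highest possible score was held by 19.1% to 20.8% of control run sites. In the OGD/R libraries it was held by 24.6% to 30.7% of run sites. Scores at that limit cannot be ranked against each other. The kinds of RNA were not separated in these counts. Of 557 sites listed in all 6 libraries, 167 (30%) had a higher score in each OGD/R 3 h library than in each control library and 48 (8.62%) a lower one. Of the 372 of them that were run sites, 142 (38.2%) were higher and 11 (2.96%) lower. For OGD/R 1.5 h the counts were 150 (21.8%) higher and 62 (9%) lower of 689 sites, and 120 (27.1%) and 32 (7.22%) of 443 run sites. For presence, 2614 of 20378 sites (12.8%) were listed in all 3 OGD/R 3 h libraries and in no control library, and among 4939 run sites of these groups 976 (19.8%) were. In the other direction it was 1643 (8.06%) of all sites and 341 (6.90%) of run sites. Between OGD/R 1.5 h and control, 955 of 17681 sites (5.4%) appeared and 1449 (8.2%) were lost, against 192 (5.68%) and 281 (8.31%) of 3382 run sites, which is close to the share of all sites. Presence entered the definition of run sites, so these last shares are given as a description.

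Recurrence over libraries was tied to the kind of RNA. Of the 678 loci, 305 held a run in 1 library and 30 in all 9. Of the 30, 18 were small noncoding RNAs, 11 of them snoRNAs, 4 lay in the rRNA segment and 6 were unannotated, 1 of which was similar to the rRNA segment. The other 2 were the noncoding gene Gm46178 and the 3′ untranslated region of Lars2, which encodes the mitochondrial leucyl-tRNA synthetase. Of 374 mRNA loci, Lars2 was the single one with a run in all 9 libraries, with 32 to 33 of its 44 cytosines listed in control, 31 to 33 in OGD/R 1.5 h and 43 in each OGD/R 3 h library. Within a group, 46.0% to 51.8% of the runs of a control library, 46.5% to 53.0% in OGD/R 1.5 h and 56.9% to 59.0% in OGD/R 3 h were overlapped by a run in both other libraries.

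**Figure D4:**
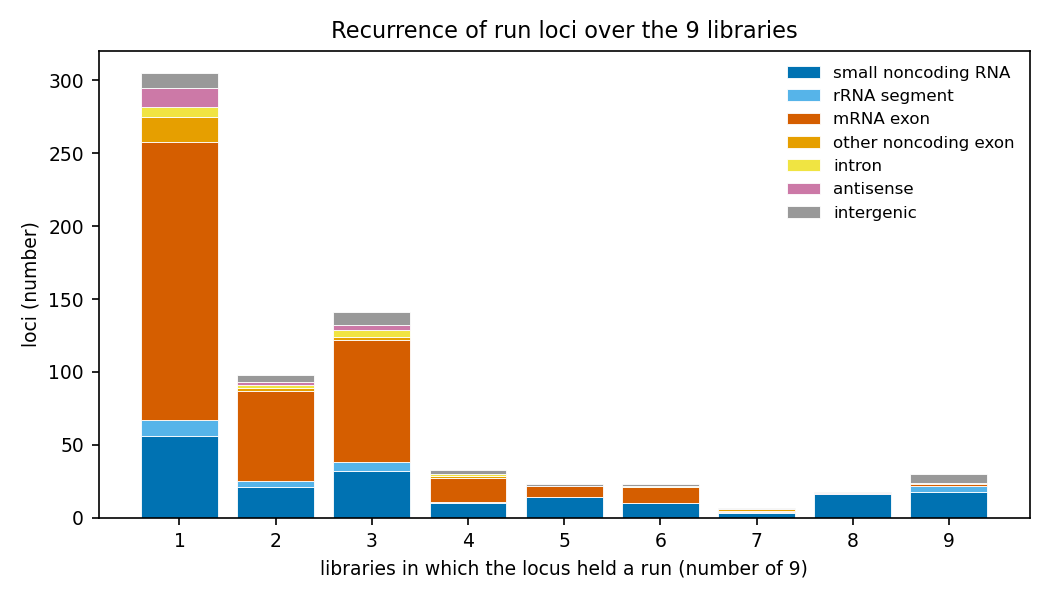
Bars give the number of loci by the number of libraries, of 9, in which they held a run, split by kind of RNA. The bar for 1 library holds 305 loci, of which 191 are mRNA exons, and the bar for all 9 holds 30, of which 1 is.

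The loci with a run in all 9 libraries that held most distinct sites over all libraries were 4 stretches of the rRNA segment and an unannotated stretch of chromosome 1 (chr1:167340277-167340517, minus strand). The largest, chr17:39843757-39844714, had 248 of its 328 cytosines listed in at least 1 library and 80 to 120 in any single library. The unannotated stretch had 71 of 88, with 18, 25 and 22 sites in the control libraries, 25, 38 and 31 in OGD/R 1.5 h and 44, 43 and 42 in OGD/R 3 h. OGD/R 3 h lay above the other groups, and OGD/R 1.5 h touched control at 25. A further unannotated locus (chr10:11492091-11492236, minus strand), among the 3 with most sites in control, had 21, 28 and 31 sites in control and 19 to 31 in the OGD/R libraries. Copies of a multi-copy RNA can share reads, so the gene of origin is uncertain for such RNAs, and 35 of the 678 loci were similar in sequence to another locus.

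Of the 678 loci, 82 (12.1%) held a run in all 3 libraries of OGD/R 3 h and in none of the other 6, 18 (2.65%) did so for control and 5 (0.737%) for OGD/R 1.5 h. These loci were chosen by that pattern, so the values below are a description. At 38 of the 82 loci of OGD/R 3 h, no site at all was listed in the other 6 libraries, and the same held for 7 of the 18 control loci and 1 of the 5 loci of OGD/R 1.5 h. Of the 82, 52 lay in mRNA exons and 21 in small noncoding RNAs. These were 13.9% of the 374 mRNA loci and 11.7% of the 180 small noncoding loci, close to the 12.1% of all loci.

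Among the loci of OGD/R 3 h, Hbb-bs encodes a beta chain of adult haemoglobin, the oxygen carrier of red blood cells. Its locus (chr7:103827833-103827926, minus strand) spans the start codon, with part in the 5′ untranslated region and part in the coding sequence. All 25 of its cytosines were listed in each of the 3 libraries and none in the other 6. Its neighbour Hbb-bt had a shorter run with all 6 cytosines listed in the same 3 libraries and none elsewhere. The copies are closely related in sequence, so reads could be shared between them.

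Itm2b, an integral membrane protein that is processed from a precursor, had 20, 6 and 12 of 23 cytosines listed in its coding stretch (chr14:73365758-73365830, minus strand) in OGD/R 3 h and none elsewhere, so its 3 libraries differed widely. Cox4i1, a subunit of cytochrome c oxidase in the respiratory chain, had 11, 17 and 9 of 35 in OGD/R 3 h, 1, 3 and 3 in OGD/R 1.5 h and none in control (chr8:120673979-120674111, plus strand). The small Cajal body RNA Scarna3a, which shares its place with Mir1843b, had 12, 11 and 25 of 36 in OGD/R 3 h and 0 to 4 in the other libraries.

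Of the 18 loci with a run in control alone (2.65% of all loci), 9 lay in mRNA exons and 7 in small noncoding RNAs. These were 2.41% and 3.89% of the loci of the 2 kinds. The 5 with most sites, given here, all lay outside mRNA. An unannotated stretch (chr1:131573883-131573963, minus strand) had 23, 22 and 24 of 24 cytosines listed in control and 0 to 2 in the OGD/R libraries. The snRNA gene Gm23971 had 16, 19 and 18 of 26, and the snoRNA Snord104 had 9, 10 and 10 of 19, with none in any OGD/R library. The Gm23971 stretch was 100% identical to the snRNA gene Gm23444, so reads could be shared between the copies. The U3 RNA Rnu3b1, which takes part in processing of the rRNA precursor, had 10, 7 and 5 of 15 in the control libraries, 4, 0 and 0 in OGD/R 1.5 h and none in OGD/R 3 h. The main Rn7s1 stretch had 9 of 23 in each control library and none in the OGD/R libraries.

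The OGD/R 1.5 h group had few runs of its own. Sec24a encodes a coat protein of vesicles that leave the endoplasmic reticulum, and its coding stretch (chr11:51733851-51733900, minus strand) had 9, 6 and 8 of 20 cytosines listed, against 4, 1 and 3 in OGD/R 3 h and none in control. Homer2, a scaffold protein of the synapse, had 5, 6 and 7 of 13 in its 5′ untranslated region, 1, 2 and 2 in control and none in OGD/R 3 h. The snoRNA Gm12238 had 9, 11 and 13 of 13, against 0 to 3 in the other libraries. A stretch opposite to Rbms2 had 6, 8 and 8 of 14 and none elsewhere, and a stretch of the rRNA segment had 6, 7 and 7 of 28 against 0 to 3.

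**Figure D5:**
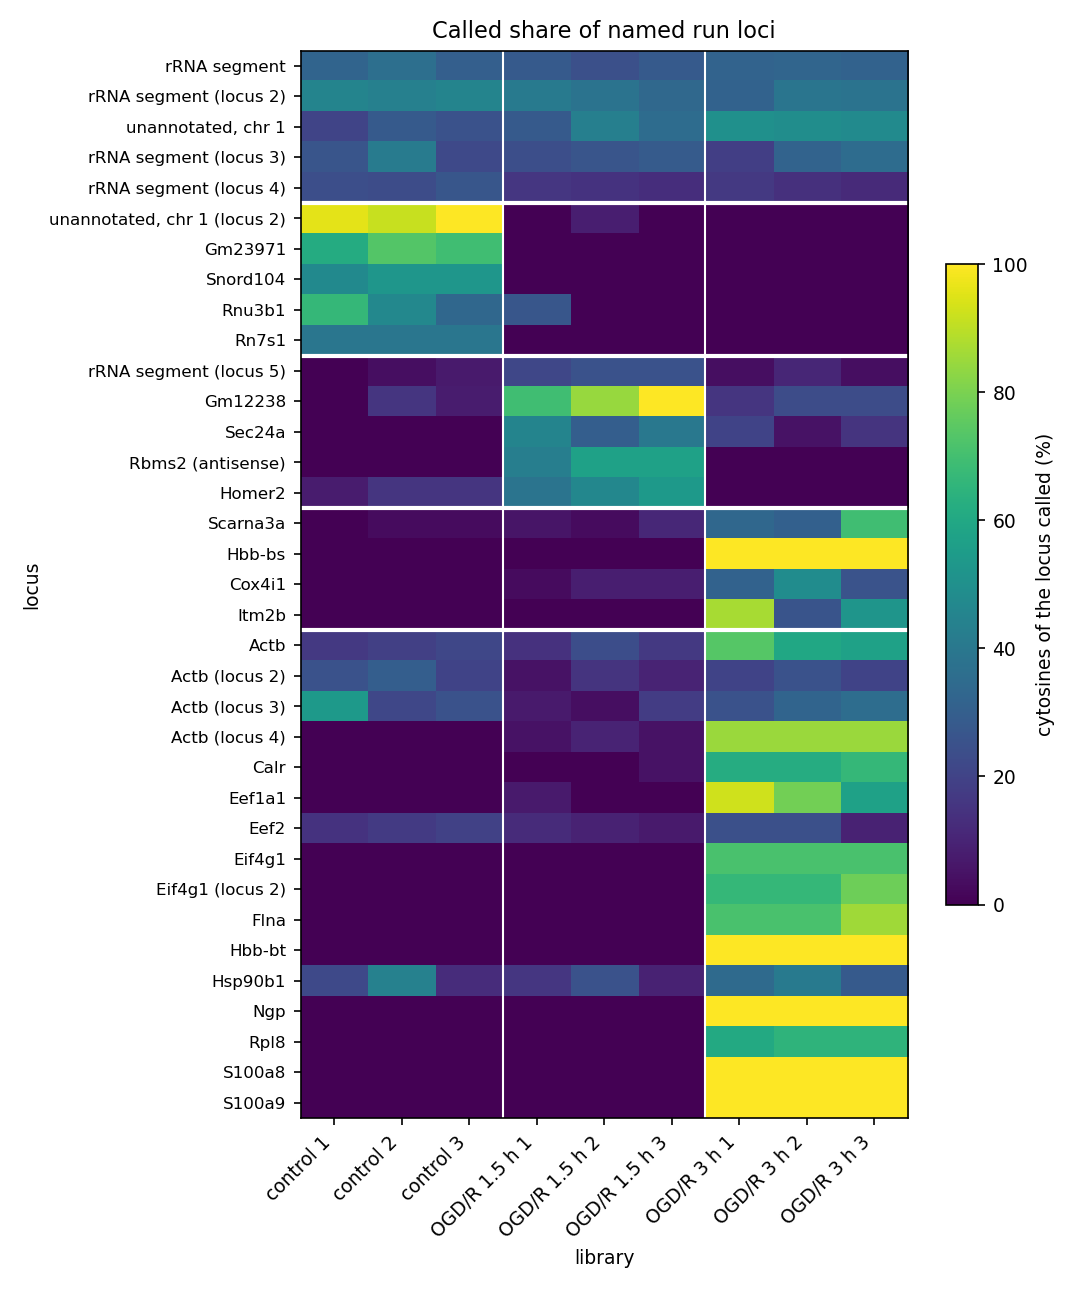
The colour gives the percentage of the cytosines of a locus that are listed in each library, with loci in rows and libraries in columns. White lines part, from the top, loci with a run in all 9 libraries, runs of control, of OGD/R 1.5 h and of OGD/R 3 h, and, at the bottom, loci of the gene lists that held a run in at least 3 libraries. Hbb-bs, Hbb-bt, Ngp, S100a8 and S100a9 stand at 100% in OGD/R 3 h and at 0 elsewhere.

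Genes with a run numbered 127, 120 and 126 in the control libraries, 115, 121 and 109 in OGD/R 1.5 h and 215, 205 and 202 in OGD/R 3 h. Of 21787 protein-coding genes, 103 (0.473%) held a run in at least 1 control library, 95 (0.436%) in OGD/R 1.5 h and 164 (0.753%) in OGD/R 3 h. They did so in all 3 libraries of the group at 25, 11 and 70 genes. The gene lists that follow were chosen with earlier results known, and their counts stand beside these shares with no test. Only a gene with a listed site can hold a run. In control 1828 protein-coding genes carried a site, against 1761 after deprivation for 1.5 h and 1460 after 3 h. Among 88 ribosomal protein genes the matching numbers were 12, 15 and 20. The share of a list with a run thus depends also on how many of its genes carry a site.

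Of 88 ribosomal protein genes, 0 held a run in control and OGD/R 1.5 h and 2 in OGD/R 3 h. Rpl8, a protein of the large ribosomal subunit, had 14, 15 and 15 of 23 cytosines listed in its coding locus (chr15:76904869-76904950, plus strand) in OGD/R 3 h and none in that locus elsewhere, and Rplp1 had 7, 2 and 1 of 8. Of 6 translation factor genes, 1 held a run in control, 1 in OGD/R 1.5 h and 4 in OGD/R 3 h. The elongation factor Eef2 did so in all groups, Eef1a1, which delivers aminoacyl-tRNA to the ribosome, had 13, 11 and 8 of 14 in its locus with most sites in OGD/R 3 h and 0 to 1 in the other libraries, and the scaffold of the cap-binding complex Eif4g1 had 2 runs in its 5′ untranslated region in OGD/R 3 h, with 5, 5 and 5 of 7 and 6, 6 and 7 of 9 cytosines. Eif4g2 held a run in 1 library.

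Of 10 cytoskeleton genes, 1, 0 and 2 held a run. Beta-actin (Actb) carried several. Its 5′ untranslated locus (chr5:142906667-142906715, minus strand) had 17 of 20 cytosines listed in each OGD/R 3 h library, 0 in control and 1 to 2 in OGD/R 1.5 h, while its largest 3′ untranslated locus had 7, 8 and 9 of 42 in control and 31, 25 and 24 in OGD/R 3 h. Not every Actb run followed that pattern, since a further 3′ untranslated locus had 15, 6 and 7 of 28 in the control libraries, 2, 1 and 5 in OGD/R 1.5 h and 7, 9 and 10 in OGD/R 3 h. Filamin A (Flna), which cross-links actin, had 5, 5 and 6 of 7 in OGD/R 3 h and none elsewhere.

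Of 6 chaperone genes, 1, 1 and 2 held a run. Calreticulin (Calr), a calcium-binding chaperone of the endoplasmic reticulum, had 13, 13 and 14 of 21 cytosines listed in OGD/R 3 h and 0 to 1 in the other libraries. Hsp90b1, a chaperone of the same compartment, had 7, 14 and 4 of 32 in the control libraries, 5, 8 and 3 in OGD/R 1.5 h and 11, 13 and 9 in OGD/R 3 h, and its groups overlapped. Of 6 apolipoprotein genes, whose products carry lipids in lymph and blood, 3 held a run in control and none in the OGD/R groups. These were Apoa1, Apoa4 and Apob, each in 1 or 2 of the 3 control libraries, and the Apob locus had 3, 5 and 5 of 10 in control, 1 in each OGD/R 1.5 h library and 2 to 3 in OGD/R 3 h. Over the whole gene, Apob had 4, 6 and 6 listed sites in control and 21, 21 and 19 in OGD/R 3 h. Apoa1 had 22, 17 and 17 against 17, 18 and 21, and Apoa4 had 19, 24 and 19 against 13, 15 and 17. In OGD/R 1.5 h they had 2 to 4, 4 to 5 and 11 to 13.

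Among the markers of other cell types, 2 of 7 annotated erythroid genes (Hbb-bs and Hbb-bt) and 3 of 9 neutrophil genes held runs, in OGD/R 3 h alone. The other genes of these lists carried no listed site in any group. S100a8 and S100a9, calcium-binding proteins abundant in neutrophils, had 9 of 9 and 6 of 6 cytosines listed in each OGD/R 3 h library and none in the other 6. Ngp, a granule protein of neutrophils, had 5 of 5 in the same way. Every site of S100a8 and Ngp in these files lay in its run, 9 and 5 in each library. Of the 15 markers of intestinal epithelium, 2 held a run in 1 OGD/R 3 h library each, Krt19 with 2, 2 and 5 of 8 cytosines and Fcgbp, which is also in the mucus and goblet cell list (1 of 6), with 2, 5 and 2 of 19. Smooth muscle and fibroblast markers and neuron markers held none. Sites of the named erythroid and neutrophil genes thus appeared and formed runs in the same 3 libraries, and whether this followed the RNA content of the cultures was not tested.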

How the data were processed

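Per the labels and the study's methods, the authors trimmed reads with cutadapt 1.9.3, mapped the bisulfite reads on mm10 using meRanGh, and used meRanCall for the site calls of each library. The deposited files list, for each of the 9 bisulfite libraries, the sites with position, strand and a score from 0 to 1000. The files do not define the score, which was read here as the methylation call score of the caller multiplied by 10, cut to its whole part and capped. They hold no read counts, so depth is unknown and no interval was computed.

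All sites fell on a cytosine of mm10. Runs, loci and named genes follow the rules given in the report. The named loci were the 5 loci in all 9 libraries with most sites, the 5 per group with a run in all 3 of its libraries and in none of the others, the 3 per group with most sites, the longest run of each group and genes of the lists. Of these, 1 locus of OGD/R 3 h is not reported here. Members and lists were chosen with earlier results of these data known.

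Sites were placed on RefSeq in the order small noncoding RNA, rRNA segment, mRNA exon, other exon, intron, antisense and intergenic, an order chosen after the data were seen. Similarity was at least 90% identity over 80% of a locus (blastn 2.17.0+), and folding used RNAfold 2.7.2. Python 3.11.15, numpy 2.4.6 and matplotlib 3.10.9 were used, and the run caller was tested on simulated data. Alternatives were a score of at least 10, neighbours within 50 nt, sites in at least 2 libraries of the group, shorter run ends, GENCODE genes, and each library left out. Sites in mRNA exons only, and sites outside small noncoding RNAs and the rRNA segment, were added after the data were seen.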

Additional observations from a re-analysis of the deposited data

Results flagged for a closer look

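Of the measures of runs and of whole libraries, 16 had every library of OGD/R 1.5 h on one side of all control libraries and every library of OGD/R 3 h on the other, and these differences were not tested. Several of them count the same sites. Measures of sites outside runs were not screened, and some moved in opposite directions too. Their median score was 11 in control, 9 in OGD/R 1.5 h and 14 to 15 in OGD/R 3 h, and 322 to 357, 268 to 304 and 424 to 461 lay in small noncoding RNAs. Their share within 100 nt of the start codon did not move that way. The values below are means ± SD over 3 libraries, first for control, then for OGD/R 1.5 h and last for OGD/R 3 h. Run sites in mRNA exons numbered 298 ± 24.0, 216 ± 22.3 and 858 ± 62.7, and their share of all run sites was 23.8% ± 2.10, 17.2% ± 1.88 and 37.5% ± 2.42. Runs in mRNA exons numbered 67 ± 6.56, 49 ± 6.24 and 138 ± 8.14, and mRNA genes with a run 59 ± 5.57, 44.3 ± 2.52 and 110 ± 7.51. The share of mRNA exon sites that lay in runs was 7.51% ± 0.801, 6.00% ± 0.474 and 17.4% ± 0.497.

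Of the mRNA run sites, 26.9% ± 0.947, 16.8% ± 1.94 and 42.9% ± 5.77 lay within 100 nt of the start codon. The 5′ untranslated region held 30.1% ± 0.902, 14.6% ± 3.64 and 36.0% ± 2.90 of them, and the 3′ untranslated region 14.5% ± 0.255, 20.7% ± 4.83 and 12.5% ± 0.955, in the opposite order.

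Small noncoding RNAs held 45% ± 3.56, 55.7% ± 4.01 and 38.1% ± 2.63 of the run sites. In snRNAs, listed sites numbered 67.7 ± 5.86, 36.7 ± 5.13 and 140 ± 15.2, and run sites 42.7 ± 0.577, 16.7 ± 5.51 and 112 ± 18.8. Runs in introns numbered 4 ± 1, 1 ± 1 and 8.33 ± 2.31.

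Whole libraries listed 6061 ± 177, 5617 ± 171 and 7471 ± 266 sites, and their runs held 2596 ± 98.5, 2340 ± 131 and 4261 ± 60.4 cytosines. Sites with exactly 4 others within 25 nt numbered 389 ± 43.3, 289 ± 33.7 and 530 ± 40.3, and those with exactly 3 others 556 ± 12.0, 446 ± 37.9 and 754 ± 31.9.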

How the results depend on the processing

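Across 16 differences between an OGD/R group and control, the 96 values with a library left out each moved by less than the spread between libraries (for counts, by less than 1.5 times), though small differences moved by a large factor. For OGD/R 1.5 h the recurrence ranged from 0.343 to 3.62 points (1.73 with all libraries), lowest without OGD/R 1.5 h replicate 1 and highest without its replicate 2, with 0.460 and 3.37 without control replicates 1 and 2. Its share of sites in runs ranged from 1.05 (without OGD/R 1.5 h replicate 2) to 2.39 points (1.77), and its log2 difference in run sites from -0.05 (without OGD/R 1.5 h replicate 2) to 0.04 (0.01). For OGD/R 3 h the median run length ranged from 0.833 (without OGD/R 3 h replicate 2 or 3) to 2.33 nt (1.33). Whether the groups overlapped changed in 8 of the 96, always from overlap to apart: without OGD/R 1.5 h replicate 2 for its run sites, runs and genes, without control replicate 2 for its runs and genes, without control replicate 3 or OGD/R 1.5 h replicate 3 for its share of sites in runs, and without OGD/R 3 h replicate 1 for the median length of OGD/R 3 h. Of 86 values under the other alternatives, 75 kept the sign and 58 the overlap or separation of the groups. Among the 50 closest to the reported values, run sites of OGD/R 1.5 h went from overlap to a log2 difference of 0.21 with a score of at least 10 and of -0.47 in mRNA exons, both apart, and its runs and genes went from overlap to below control within 50 nt, with at least 2 libraries, in mRNA exons and without small noncoding RNA and the rRNA segment (the noncoding classes). The 36 others follow. For OGD/R 3 h, the log2 difference in run sites was 1.52 in mRNA exons only. Its share of sites in runs differed by 11.4 points with a score of at least 10, 11.5 within 50 nt, 11.3 with sites in at least 2 libraries and 11.1 without the noncoding classes. Its CHH share differed by 9.55 points in mRNA exons, 1.11 with the score minimum, 5.12 within 50 nt, 0.419 with at least 2 libraries and 5.71 without the noncoding classes, and libraries overlapped under the score and library minimums. Its recurrence in both other libraries differed by 19.9, 3.38 (50 nt), 15 (at least 2 libraries) and 15.8 points (without the noncoding classes). Within 50 nt its median length differed by 4.67 nt, now apart from control, and its listed share of cytosines by 2.15 points, now overlapping. For OGD/R 1.5 h, the share of sites in runs differed by -1.52 points in mRNA exons, 6.06 with the score minimum, 4.87 with at least 2 libraries and -0.812 without the noncoding classes, the first 3 now apart from control. Its median length differed by 0.333, 9 and 8.67 nt in the first 3 of these, by 1 nt with the shorter run ends, and reversed to -0.167 nt without the noncoding classes, with overlap in mRNA exons and in the last 2. Its listed share of cytosines differed by 0.892 points in mRNA exons, 9.20 with at least 2 libraries and 1.06 without the noncoding classes (overlapping in the first and last), its CHH share by 10.1 points in mRNA exons, 0.893 with the score minimum and 1.41 with at least 2 libraries (both minimums overlapping), and its recurrence by -11.4 points in mRNA exons, 6.40 with the score minimum, -6.73 within 50 nt, 7.86 with at least 2 libraries and -6.28 without the noncoding classes, all apart from control but the value with the score minimum. The causes were not tested. No paired analysis was possible because the results come from no test, and nothing in the labels says that libraries with the same number share a culture. The files give no read depth, so a site missing from a library cannot be told apart from one with too few reads.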
